A study of Homo sapiens with 2 samples.

Results

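The solute carriers, the SLC genes, are one of the largest classes of membrane transporters in human cells, and this account describes them in a human breast cancer line called 468. Members were all genes whose symbol begins with SLC and a digit, less 13 transporters of amino acids, glucose and lactate that the selection rule set aside. This gave 212 of the 13017 genes listed for both libraries. A mean of at least 1 FPKM (fragments per kilobase of gene, scaled to the fragments of the library) over the libraries was reached by 174 of the 212, and the other 38 are called low. The names fix no function: SLC2A4RG, SLC4A1AP, SLC7A6OS and SLC22A18AS carry the prefix of a partner or neighbour and are not transporters themselves.

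The cells were grown in L15 medium with 10% serum. In the knockdown group the antisense RNA THAP7-AS1 was targeted for 48 h with a Smart Silencer, a purchased pool of oligonucleotides that silence an RNA; the control group received si-NC, a negative control. Both samples carry the same treatment label, so the groups follow the genotype label. Each group is 1 library of total RNA, so differences are given with no replicate check and no p-value; a level also cannot tell less RNA per cell from fewer expressing cells.

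The libraries held an estimated 11100000 fragments (knockdown) and 10900000 (control). The members took 0.802% and 0.824% of summed FPKM. The level of THAP7-AS1 is not analysed here and cannot show how deep the knockdown was. Pairs of values below give the knockdown library first and the control second. All 6 epithelial markers were above 10 FPKM in both libraries, among them KRT19, at 1106 and 1057 FPKM. Of 6 basal-like breast markers 5 reached a mean of 1 FPKM, with EGFR at 258 and 336 FPKM. Of 5 fibroblast markers only COL1A1 was listed, at 0.866 and 0.874 FPKM. No endothelial marker was listed, and of the leukocyte markers only CD14 was, at 10.3 and 9.50 FPKM. Its part in the results below was not tested.

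Solute carriers move substrates across a membrane down a gradient or coupled to an ion such as sodium or a proton, without splitting ATP themselves. Those of the plasma membrane bring in amino acids, vitamins, sugars, metals and inorganic ions, and those of organelles pass the same substrates on to lysosome, Golgi and mitochondrion. The SLC25 family, the mitochondrial carriers, exchanges nucleotides, phosphate and metabolites across the inner mitochondrial membrane.

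A few genes made up a large share of the members' RNA. The 4 most abundant members supplied 30.02% of the mean FPKM of all 212, and the first 17 supplied 50.7%. Above 20 FPKM there were 13 members, and above 10 FPKM there were 38. The ADP/ATP carriers SLC25A6 and SLC25A5, which export ATP from the mitochondrion, led the list. SLC25A6 was at 172 FPKM in the knockdown and 182 in the control, and SLC25A5 was at 193 and 154. Their order therefore differed between the libraries: SLC25A6 was the higher in the control and SLC25A5 the higher in the knockdown. In the annotation, 3.74% of the 50-base words of SLC25A5 and 0.861% of those of SLC25A6 occur in another annotated gene. Y-chromosome copies of genes shared by X and Y were left out of that count. The share of SLC25A6, which is placed on X, may therefore be understated. SLC25A4, the ADP/ATP carrier best known from heart and muscle, was at 9.11 and 8.36 FPKM.

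**Figure D1:**
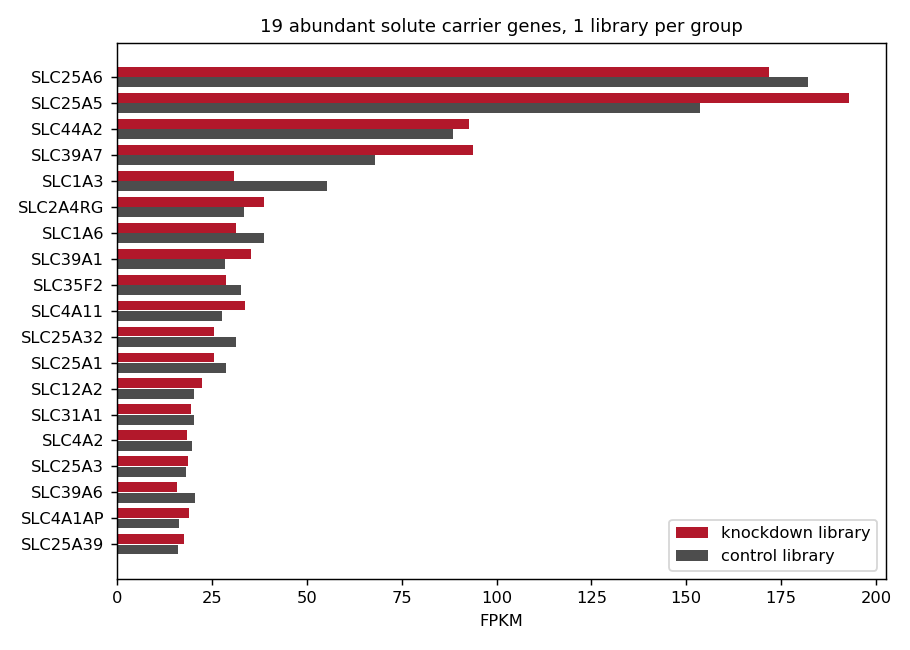
FPKM (horizontal axis) of 19 abundant members, with a red bar for the knockdown library and a grey bar for the control library. SLC25A6 and SLC25A5 stand above all others, SLC39A7 is longer in red (93.8 against 67.9 FPKM), and SLC1A3 is longer in grey (30.7 against 55.2 FPKM).

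The choline transporter SLC44A2 followed at 92.7 and 88.6 FPKM. SLC39A7, which releases zinc from the endoplasmic reticulum, had 93.8 and 67.9 FPKM and thus a log2 ratio of 0.46. RXRB, whose exons overlap those of SLC39A7 on the opposite strand, was also higher in the knockdown library, at 9.89 against 6.49 FPKM, and without strand information reads of the overlap cannot be told apart. The glutamate transporter SLC1A3 was the fifth most abundant member on its mean, at 30.7 FPKM against 55.2. SLC1A6, another glutamate transporter, stood beside it at 31.5 and 38.9 FPKM. The zinc importer SLC39A1 was at 35.2 and 28.5 FPKM, SLC35F2 at 28.6 and 32.7, and SLC4A11, a transporter of the bicarbonate family, at 33.7 and 27.6. SLC39A1 is uncertain, because 55.2% of its 50-base words also occur in the overlapping gene model AL358472.7. The mitochondrial folate or flavin carrier SLC25A32 (25.6 and 31.3 FPKM) is uncertain in the same way, with 66.7% of its words found elsewhere. The citrate carrier SLC25A1 was at 25.5 and 28.7 FPKM, and the sodium, potassium and chloride cotransporter SLC12A2 at 22.4 and 20.3.

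The comparison of knockdown with control asked which transporters differed between the libraries. Ratios are the log2 of knockdown over control after adding 1 to each FPKM, a scale that understates the change of low genes. Of the 174 members kept, 7 were at least 2-fold lower in the knockdown library, which is 4.02%, and 0 were at least 2-fold higher. Over all 10925 genes kept, 0.668% were at least 2-fold lower and 0.604% at least 2-fold higher. Not counted among the members was SLC1A5, set aside by the rule, at 81.2 against 40.3 FPKM. Its log2 ratio of 0.99 lay just under the 2-fold limit. At a limit of 1.5-fold, 16 members (9.20%) were lower and 2 (1.15%) higher, beside 2.46% lower and 2.98% higher over all genes. With 0.1 FPKM added in place of 1, 9 members (5.17%) were 2-fold lower, SLC11A2 and SLC35A4 joining the 7, beside 1.15% of all genes. With 5 FPKM added, only SLC35F6 remained 2-fold lower among the members, beside 0.128% of all genes; from a mean of 5 FPKM upwards, 4 of 85 members (4.71%) were lower, beside 0.546% of all genes. SLC23A2, SLC22A23 and SLC35F6 had been named when the members were proposed, with their values known, so they are no independent support for these shares. The middle of the members moved little: their median log2 ratio was -0.03, beside 0.02 over all genes kept. Below 0 were 95 of 174 (54.6%), beside 46.9% of all genes kept. The asymmetry lay in the lower tail, with a 5th percentile of -0.89 for the members and -0.42 for all genes. The 95th percentiles were 0.44 and 0.47.

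**Figure D2:**
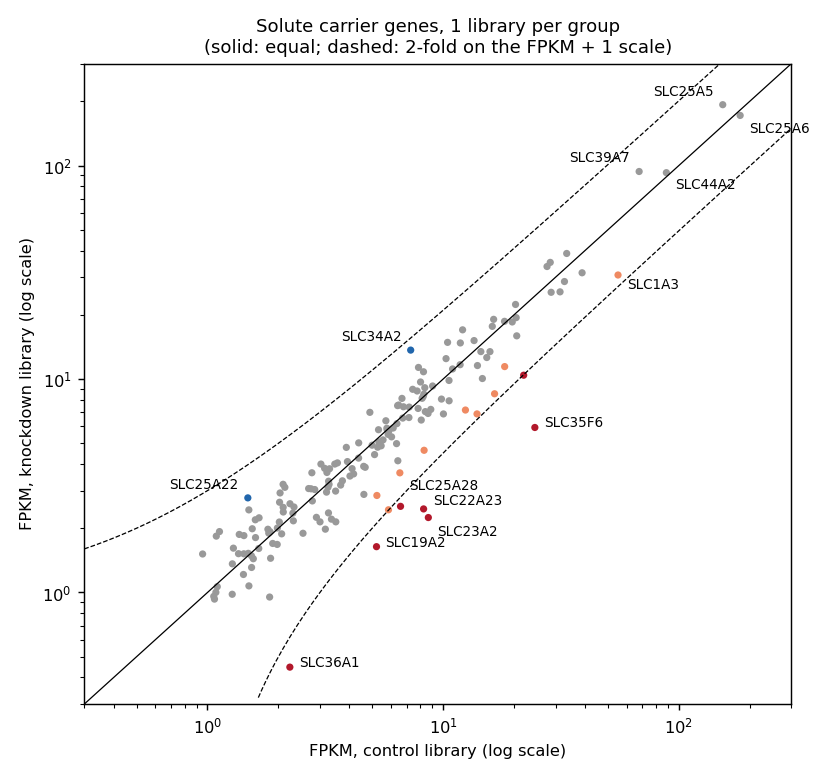
FPKM in the control library (horizontal, log scale) against the knockdown library (vertical, log scale) for the 174 members kept, 1 point per gene. Dark red points are at least 2-fold lower in the knockdown library (7 genes), orange points 1.5-fold to 2-fold lower, and blue points at least 1.5-fold higher (2 genes); no point passes the upper dashed line.

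The 7 lower members belong to 7 different SLC families, and 6 of them are described here. SLC35F6 (ENSG00000213699.8_3, chromosome 2) had the lowest ratio. It belongs to the family of nucleotide sugar transporters, but its own substrate is not settled. Its level was 5.93 FPKM against 24.5, and its log2 ratio was -1.88. CENPA, which encodes the histone of the centromere and shares 138 exon bases with SLC35F6 on the same strand, was at 8.01 and 7.23 FPKM. Reads of the shared bases are divided between these genes by estimate. SLC35F6 has 3902 exon bases, and the part of this division in its ratio was not tested.

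SLC23A2 (ENSG00000089057.14_2, chromosome 20) encodes a sodium-coupled transporter that brings ascorbate, vitamin C, into cells. It was at 2.24 FPKM against 8.65, and its log2 ratio was -1.57. Without the added 1, the ratio of FPKM was 0.259, with a 95% interval of 0.220 to 0.305 for counting error. That interval and those below are exact binomial ones, rest on the estimated depth, and hold nothing of the spread between cultures. SLC23A1, the ascorbate transporter of gut and kidney, was low in both libraries, at 0.633 and 0.490 FPKM, so SLC23A2 supplied most of the ascorbate transporter RNA in each.

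SLC19A2 (ENSG00000117479.12_3, chromosome 1), the thiamine transporter, was at 1.64 FPKM against 5.21. Its log2 ratio was -1.24, and the interval of its plain ratio was 0.242 to 0.405. The reduced folate carrier SLC19A1, its relative, did not share this difference and was at 1.98 and 1.80 FPKM. SLC22A23 (ENSG00000137266.14_2, chromosome 6), a member of the organic ion transporters with no settled substrate, was at 2.46 against 8.26 FPKM, a log2 ratio of -1.42. PSMG4, a proteasome assembly gene that overlaps 1388 of its exon bases on the opposite strand, was at 5.78 and 5.33 FPKM. The other SLC22 transporters kept lay near 0, namely the carnitine transporter SLC22A5 at -0.07, SLC22A4 at -0.06 and SLC22A18 at 0.01 in log2 ratio.

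SLC36A1 (ENSG00000123643.12_3, chromosome 5) exports small neutral amino acids from the lysosome together with protons. It was the least abundant of the 7, at 0.447 FPKM against 2.24, or about 35 and 171 fragments, and its log2 ratio was -1.16. Its plain ratio of 0.200 was the lowest of the 7, with the relatively widest interval, 0.135 to 0.289, which overlaps that of SLC35F6, 0.210 to 0.278. SLC36A4, its relative, was at 0.900 and 0.896 FPKM.

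SLC25A28 (ENSG00000155287.10_2, chromosome 10), known as mitoferrin-2, brings iron into the mitochondrion and was at 2.53 FPKM against 6.60, a log2 ratio of -1.10. SLC25A37, the mitoferrin of red cell precursors, had 3.59 and 4.17 FPKM and a log2 ratio of -0.17. SLC11A2, which carries iron and other divalent metals across the plasma membrane and out of endosomes, lay just outside the limit with a log2 ratio of -0.996, at 2.44 against 5.86 FPKM. The iron exporter SLC40A1 was low, at 0.310 and 0.421 FPKM.

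Another 8 members besides SLC11A2 were between 1.5-fold and 2-fold lower. SLC35A4, a Golgi relative of the nucleotide sugar transporters, was at 6.86 FPKM against 13.9, and SLC35D2, which carries UDP-N-acetylglucosamine, was at 4.64 against 8.30. SLC35D2 is uncertain, since 43.5% of its 50-base words also occur in the overlapping model AL160269.1. SLC5A6, the sodium-coupled transporter of biotin and pantothenate, was at 8.53 against 16.5 FPKM. The haem transporter SLC48A1 was at 7.16 against 12.4 FPKM, and SLC37A4, which carries glucose 6-phosphate into the endoplasmic reticulum, at 3.64 against 6.55. The exons of SLC37A4 overlap TRAPPC4 on the opposite strand, at 2.21 against 3.19 FPKM, and those of SLC5A6 overlap ATRAID, at 30.2 and 29.1. SLC1A3 and SLC25A24, a calcium-regulated carrier of ATP and phosphate in mitochondria, had log2 ratios of -0.83 and -0.63. The last of the 8, SLC35E2B, is uncertain because 46.7% of its 50-base words occur in another gene, chiefly its copy SLC35E2A. SLC35E2B was at 2.85 against 5.23 FPKM and SLC35E2A at 1.85 against 1.43.

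The 2 members at least 1.5-fold higher were SLC34A2 and SLC25A22. SLC34A2, the sodium-coupled phosphate transporter of epithelia, was at 13.7 FPKM against 7.28, and its log2 ratio was 0.82. Its plain ratio was 1.88, with a counting interval of 1.66 to 2.12. The more widely expressed phosphate transporters did not match it, with SLC20A1 at 10.1 against 14.7 FPKM and SLC20A2 at 8.12 and 8.15. SLC25A22, a mitochondrial glutamate carrier, was at 2.78 against 1.48 FPKM, a log2 ratio of 0.60.

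**Figure D3:**
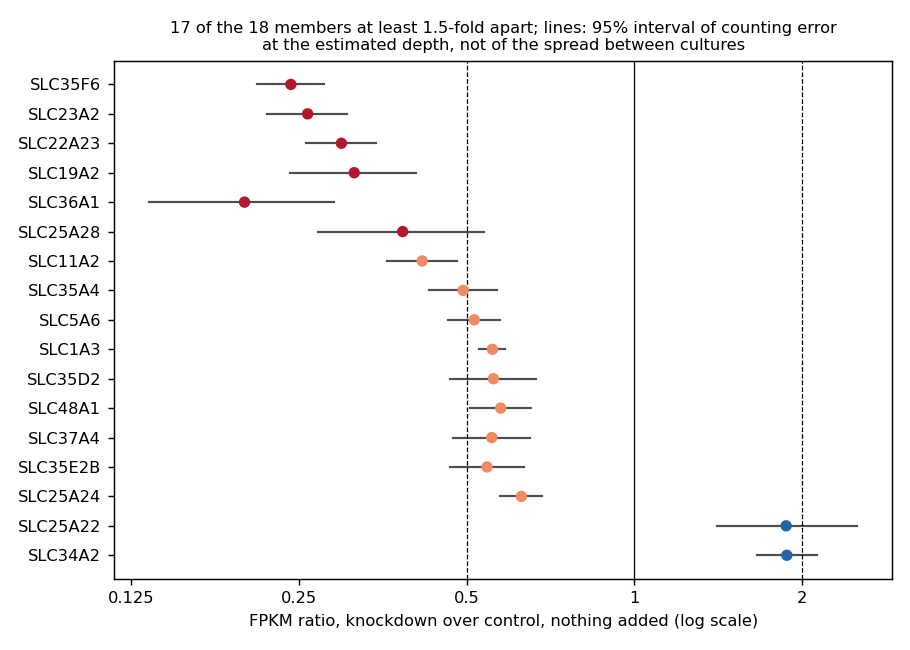
Plain FPKM ratio, knockdown over control (horizontal, log scale, nothing added), of 17 of the 18 members at least 1.5-fold apart on the FPKM + 1 scale. Points are dark red for 6 at least 2-fold lower, orange for the 9 between 1.5-fold and 2-fold lower and blue for the 2 higher. Lines are 95% intervals of counting error only, and no line crosses a ratio of 1. The members shown were chosen by their ratios in these same libraries, so that outcome was largely fixed by the choice. The lines rest on estimated fragments that may be overstated, so they may be too narrow.

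By substrate, the transporters of nucleosides, vitamins and haem held the most members at least 1.5-fold lower relative to their number. The count was 4 of 15 kept, beside 2.46% of all genes. These were SLC23A2, SLC19A2, SLC5A6 and SLC48A1, of which SLC5A6 was placed here by its substrate and not with its SLC5 relatives. SLC23A2 had been named with its values known, so it is no independent support for this count. The group's median log2 ratio was -0.08, and 11 of 15 lay below 0, beside 46.9% of all genes kept. The other vitamin transporters were closer to equal: the riboflavin transporters SLC52A2 and SLC52A3 had log2 ratios of -0.22 and -0.07, and the folate transporter SLC46A1 one of -0.14. The most abundant nucleoside transporter, SLC29A2, was at 11.15 and 10.97 FPKM.

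Carriers of the SLC35 family that move nucleotide sugars feed the glycosylation enzymes of the Golgi and endoplasmic reticulum. The family also held 4 members at least 1.5-fold lower, of 21 kept, beside 2.46% of all genes. These were SLC35F6, SLC35A4, SLC35D2 and SLC35E2B. SLC35F6 has no settled substrate and had been named with its values known, so it is no independent support for this count. SLC35D2 and SLC35E2B are uncertain through shared sequence, as given above. The family's median log2 ratio of -0.19 was the lowest of the 11 groups. Below 0 were 12 of 21 members, beside 46.9% of all genes kept. The opposite end of the family was SLC35E1, at 11.3 against 7.86 FPKM. Of the carriers of the sulfate donor PAPS, SLC35B2 was at 13.4 against 15.8 FPKM and SLC35B3 at 14.8 against 11.8. Their log2 ratios of -0.22 and 0.30 both lay between the 5th and 95th percentiles of all genes kept, -0.42 and 0.47.

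Mitochondrial carriers supplied the largest share of member FPKM, 35.7% in the knockdown and 33.8% in the control. Of 36 kept, 1 was at least 2-fold lower and 0 at least 2-fold higher, beside 0.668% and 0.604% of all genes. Their median log2 ratio was 0.05. Besides SLC25A28 and SLC25A24, the lower carriers included SLC25A15, the ornithine carrier of the urea cycle, at 6.86 against 10.03 FPKM. SLC25A10, the dicarboxylate carrier, was at 7.91 against 10.6 FPKM, but 41.2% of its 50-base words lie in the overlapping model AC139530.2. That model shares 1221 exon bases with SLC25A10 on the same strand and went the other way, at 4.87 against 0 FPKM. Reads of the shared bases are divided by estimate, so the lower value of SLC25A10 is uncertain. The part of this division in its ratio was not tested. Among the higher carriers, SLC25A44, which carries branched-chain amino acids, was at 6.98 against 4.89 FPKM. SLC25A23, a relative of SLC25A24 with the same type of substrate, was at 10.8 against 8.25, so these relatives lay on opposite sides. The aspartate and glutamate carrier SLC25A13 was at 12.5 against 10.3 FPKM, and the phosphate carrier SLC25A3 at 18.6 and 18.2.

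**Figure D4:**
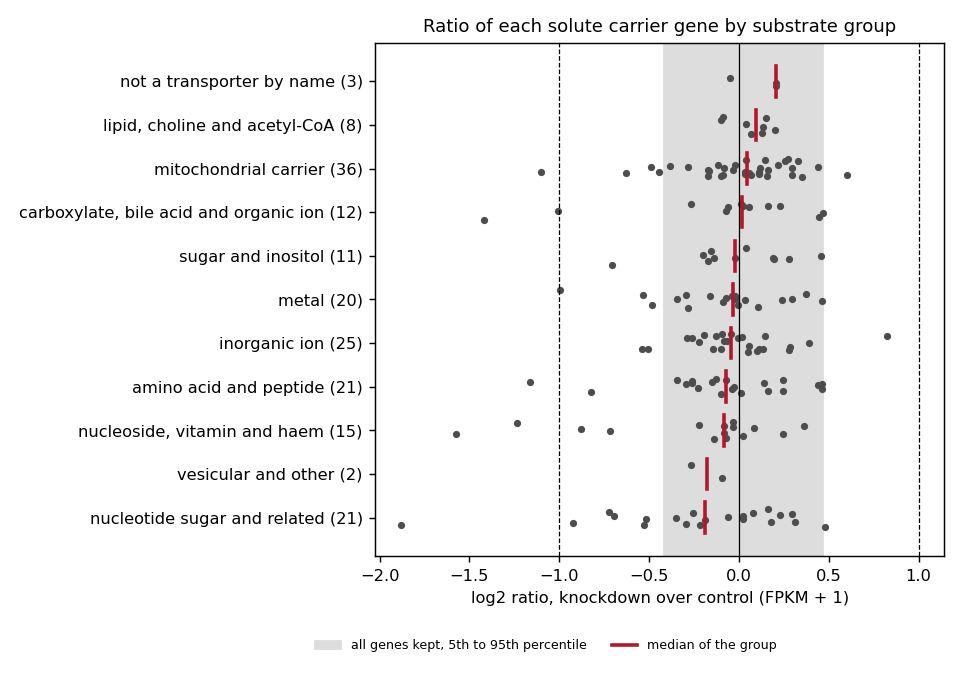
The log2 ratio of FPKM + 1, knockdown over control (horizontal), of each member kept, in rows by substrate group with the number of genes in brackets; red bars are group medians and the grey band spans the 5th to 95th percentile of all genes kept (-0.42 to 0.47). Points left of the dashed line at -1 are the 7 genes at least 2-fold lower, spread over 5 groups.

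Metal transporters took 14.3% of member FPKM in the knockdown and 12.8% in the control. Of 20 kept, 14 were below 0, beside 46.9% of all genes kept. Their median log2 ratio was nevertheless -0.03. Among the zinc importers, SLC39A7 and SLC39A1 were the highest in ratio, whereas SLC39A10 was at 2.88 against 4.61 FPKM, SLC39A13 at 1.98 against 3.16 and SLC39A6 at 15.9 against 20.5. The zinc exporters of the SLC30 family ranged from -0.29 for SLC30A7 to 0.24 for SLC30A5. The copper importer SLC31A1 was at 19.4 and 20.4 FPKM.

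The amino acid and peptide transporters left by the rule had a median log2 ratio of -0.07 over 21 genes. Apart from SLC36A1 and SLC1A3, none was 1.5-fold apart, and their highest was 0.46. SLC43A3, a transporter of purine bases in an amino acid family, was at 12.6 against 15.3 FPKM. It is uncertain, since 24.3% of its 50-base words also occur in another gene, chiefly the overlapping model AP000781.2. The 13 genes set aside by the rule, most of which carry amino acids, ran from -0.51 for SLC2A1 to 0.99 for SLC1A5.

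Among 25 inorganic ion transporters kept, SLC34A2 was the only 1 at least 1.5-fold apart. At this limit 2.98% of all genes were higher and 2.46% lower. The anion exchanger SLC4A2 was at 18.5 and 19.6 FPKM. Of 15 sugar and inositol transporters 11 were kept, with a median level of 3.77 FPKM; SLC50A1, the human SWEET sugar transporter, was the most abundant at 17.003 against 12.09 FPKM. Transporters of lipids, choline and acetyl-CoA showed the narrowest range of the groups with at least 5 genes kept, from -0.10 to 0.20 over 8 genes. The fatty acid transporter SLC27A2, at 7.51 against 6.41 FPKM, was the highest of them. In the group of carboxylates, bile acids and organic ions, SLC10A3 was the highest at 14.9 against 10.4 FPKM. The vesicular transporters kept were SLC17A5, which exports sialic acid from lysosomes, at 7.28 and 7.83 FPKM and SLC18B1, which loads polyamines, at 7.21 and 8.86.

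Transporters without an SLC symbol were set beside the members. Of 73 listed by name, 60 were kept, and 0 of them were 2-fold apart in either direction. With 0.604% of all genes higher and 0.668% lower, fewer than 1 in 60 would pass each limit at the background rate, so this count does not set them apart. ATP2B4 was the 1 at least 1.5-fold higher and MFSD9, with a log2 ratio of -0.71, the 1 at least 1.5-fold lower. Their median log2 ratio was -0.04. The plasma membrane calcium pump ATP2B4 was at 6.89 against 3.36 FPKM. MTCH2, an insertase of the outer mitochondrial membrane related to the SLC25 family, was at 41.2 against 28.9. The magnesium transporter NIPA2 was at 9.14 against 6.62 FPKM. MFSD14B was at 8.78 against 12.98 FPKM, MFSD10 at 4.92 against 6.51, and the ABC transporter ABCA3 at 5.31 against 6.46.

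Lengths of the 3' untranslated regions (3' UTRs) were then compared. In the principal transcripts of GENCODE 29, the median 3' UTR of the 7 genes was 2720 bases, beside 1415 over the members and 1091 over all genes kept with a 3' UTR. The 7 include SLC35F6, SLC23A2 and SLC22A23, at 2720, 4616 and 3597 bases, which had been named with their FPKM values known. Of the 7, 6 were above the median of the members, and SLC25A28 was below it with 327 bases. The 9 members between 1.5-fold and 2-fold lower were divided, with 5 above that median and 4 below it (SLC35D2, SLC37A4, SLC5A6 and SLC35A4, at 536 to 959 bases). The 58 members with the longest 3' UTRs had a median log2 ratio of -0.09, and the 58 with the shortest had one of 0.02. Over all genes kept the corresponding medians were -0.02 and 0.05. The part of 3' UTR length in the ratios was not tested.

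A word of 7 bases was then sought in the 3' UTRs, on the transcript strand only, because silencing oligonucleotides can pair with other RNAs through a short seed. Only genes without an SLC symbol were used to choose it. Among 10884 words held by at least 500 of those 10583 genes, CTCATTA had the lowest median log2 ratio. Its 974 holders (9.20%) had a median of -0.08 and the other genes one of 0.02. Among the members it was held by 25 of 174, or 14.4%. Of the 25, 18 were below 0, beside 95 of all 174 members and 46.9% of all genes kept. Their median was -0.05 against -0.02 for the members without it. The gap in the other genes chose the word, so it is no measure to hold the members against. Of the 7 lower members, 2 held it, SLC23A2 among them. The next word in rank, TCATTAA, overlaps it. Holders also had longer 3' UTRs, with a median of 2440 bases against 1309, and the 2 features were not told apart. The sites of SLC23A2 and of SLC1A3, the most abundant member past 1.5-fold, show what surrounds the word, given in capitals, 5' to 3', from GENCODE 29 transcripts (GRCh38).
SLC23A2, 3' UTR bases 3078 to 3084, site at chr20:4853880-4853902, minus strand: ttttcattCTCATTAggaagtta
SLC1A3, 3' UTR bases 64 to 70, site at chr5:36686325-36686347, plus strand: ctttccatCTCATTAcagctcat
The flanking bases differ between these sites. Whether the word matches a strand of the silencer was not tested, as those strands are not analysed here, and 5 of the 7 lower members, SLC35F6 among them, lack it.

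The 38 low members were all under 1 FPKM on their mean, and 2 members were at 0 in each library. Only SLC35F3 was listed at 0 in both. Among the low members were SLC5A1, the intestinal sodium and glucose cotransporter, at 1.03 and 0.586 FPKM, and the peptide transporter SLC15A1 at 0.723 and 0.431. SLC16A10, which carries aromatic amino acids, was at 0.487 and 0.773 FPKM. No low member was 2-fold apart on the FPKM + 1 scale, which at such levels leaves little room for one.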

How the data were processed

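FPKM per gene was deposited by the authors as 1 table for each of 2 libraries, per the file headers. The tools named are StringTie, HISAT2 2.0.5 and cutadapt, and the build hg19, per the submitters' processing notes; the annotation, strandedness and other versions are not stated in those notes, labels or headers. A symbol was found for 12746 of 13017 identifiers. GENCODE 29 (GRCh38) matched 12933 by identifier and gave exons, overlaps and 3' UTRs; its coordinates are printed only for sequence sites.

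Genes were kept from a mean of 1 FPKM upwards, 1 was added before the log2 ratio, and a difference of at least 2-fold took the place of a test. Depth was estimated from the value of 1 fragment in 902 genes with a single transcript. Values of FPKM times length between 80 and 100 were taken to be 1 fragment. Their medians were 89.7 (knockdown, 14 genes) and 91.4 (control, 10 genes). That window was fixed, so the medians had to fall within it, and the depths are rough. Fragments per gene use the length of all exons, which may overstate them and make the counting intervals too narrow. Genes named were the members 2-fold apart, the 15 highest and 15 lowest ratios with a mean of at least 5 FPKM, the most abundant of each substrate group, and relatives of the 2-fold genes; some genes that the rule takes are not reported here, and some others, such as SLC25A4, were chosen after their values were seen. The members, the lists and most alternatives were chosen with earlier results of these data known. The fold rule was run on simulated counts with counting error only and the same length for every gene. That simulation holds nothing of the spread between cultures. The work used matplotlib 3.10.9, scipy 1.17.1, pandas 2.3.3, numpy 2.4.6 and Python 3.11.15.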

Additional observations from a re-analysis of the deposited data

How the results depend on the processing

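No paired analysis was possible because each group has 1 library. The 7 members at least 2-fold lower became 9 with a pseudocount of 0.1 (SLC11A2 and SLC35A4 joined), 1 with a pseudocount of 5, 4 with a mean of at least 5 FPKM (of 85 members), 1 at 3-fold and 16 at 1.5-fold; the 0 higher became 2 at 1.5-fold and stayed 0 under the other 9 alternatives. Over all genes, 66 higher and 73 lower were 140 and 126 when 0.1 was added in place of 1, 19 and 14 when 5 was added, 31 and 36 from a mean of 5 FPKM upwards, 326 and 269 at 1.5-fold and 20 and 15 at 3-fold, as a larger pseudocount or a stricter limit takes fewer genes by construction. Under each of the 3 other scalings SLC11A2 joined the 7, making 8. Without genes that share exons with a listed gene, SLC35F6 left and 6 remained. The members' median ran from -0.06 to -0.004. Under another pseudocount or scaling, 295 values of 59 named members were compared. Of these, 18 moved by more than 1 SD of the ratios of genes of like abundance. The SD was taken from the median absolute deviation. All 18 were under another pseudocount. SLC23A2, SLC22A23, SLC19A2, SLC36A1, SLC25A28 and SLC11A2 moved under both, and SLC35F6 under a pseudocount of 5. A pseudocount cannot change a sign, and under the 3 other scalings 0 signs changed. Depth limits the low members most, SLC36A1 among the 7.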
